A study of Mus musculus with 24 samples.

Results

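The genes described here encode the parts of oxidative phosphorylation that are read from nuclear DNA, measured by RNA sequencing in cultured mouse microglia. They were chosen by symbol from the deposited normalized table: every gene starting with Nduf, Uqcr, Atp5 or Cox followed by a number from 4 to 8, plus Sdha, Sdhb, Sdhc, Sdhd and Cyc1. The rule found 84 of 12889 genes, and all 84 passed the filter on low counts. By function they were 35 subunits and 4 assembly factors of complex I, 4 subunits of complex II, 9 of complex III, 13 of complex IV, 15 of complex V, and Ndufa4, which was placed in complex I when it was named and is now counted with complex IV. The symbols also drew in 3 genes that are kept apart from these, although one, Atp5sl, encodes a complex I assembly factor, as described below. Atp5s and Atp5sl are named after ATP synthase but are not structural subunits of it, and Cox4nb is the neighbour of Cox4i1 and encodes a subunit of the endoplasmic reticulum membrane protein complex. A further 4 genes that fit the rule by name, Cox4i2, Cox6b2, Cox8b and Ndufa4l2, stood only in the count table, with 37, 115, 5 and 8 reads in all 24 libraries, and are not members.

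The cells were primary microglia from newborn (P0) mice, either CD14-deficient animals of strain B6.129S4-Cd14tm1Frm/J (KO) or C57BL/6 wild-type animals (WT). CD14 is the co-receptor that hands lipopolysaccharide (LPS) to the TLR4 receptor complex. Each genotype was treated for 3 h with mouse fibronectin (FN) at 100 µg/ml, an adhesive protein that leaks from blood into injured brain, with Re-LPS at 0.1 or 10 ng/ml, or left untreated, and each of the 8 groups had 3 libraries. The labels describe separate cell preparations and do not say how many animals were pooled in one.

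In background terms, complexes I and II pass electrons from NADH and succinate to ubiquinone, complex III passes them to cytochrome c and complex IV to oxygen. Complexes I, III and IV pump protons, and complex V, the ATP synthase, uses the gradient to make ATP. A core of subunits is made inside the mitochondrion and the rest come from nuclear genes, many of which have promoter sites for NRF1, for the ETS factor GABP (also called NRF2) and for YY1. Macrophages, the family to which microglia belong, are known to move towards glycolysis when LPS activates them.

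The promoters of 6 genes are printed because they belong to genes with the clearest changes below and show the 3 kinds of site, or none. A window of 300 bases, 250 before the annotated start and 50 after it, was available from RefSeq on GRCm38.p6 for 70 of the 84 genes. All are given 5′ to 3′ on the gene's own strand, and capitals mark a matched motif, on either strand. Uqcrc1 (chr9:108936398-108936697, plus strand) and Atp5g3 (chr2:73911277-73911576, minus strand) hold the NRF1 motif. Ndufb6 (chr4:40279372-40279671, minus strand) holds the ETS motif, and Ndufs4 (chr13:114388045-114388344, minus strand) and Atp5sl (chr7:25619164-25619463, plus strand, now named Dmac2, one of 2 annotated starts) hold the YY1 motif. Atp5b (chr10:128083057-128083356, plus strand) holds none of them.
Uqcrc1: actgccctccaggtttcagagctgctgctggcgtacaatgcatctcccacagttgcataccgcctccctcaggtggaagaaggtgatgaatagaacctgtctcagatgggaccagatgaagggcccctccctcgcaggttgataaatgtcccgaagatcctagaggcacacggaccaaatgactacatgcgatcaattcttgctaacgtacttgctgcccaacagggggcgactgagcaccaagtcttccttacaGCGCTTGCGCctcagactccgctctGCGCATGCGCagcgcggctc
Atp5g3: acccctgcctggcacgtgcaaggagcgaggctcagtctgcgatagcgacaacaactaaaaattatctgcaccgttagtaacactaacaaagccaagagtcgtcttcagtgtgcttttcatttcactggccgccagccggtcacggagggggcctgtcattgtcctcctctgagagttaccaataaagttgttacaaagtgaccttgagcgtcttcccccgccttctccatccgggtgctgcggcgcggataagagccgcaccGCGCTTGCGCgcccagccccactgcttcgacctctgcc
Ndufb6: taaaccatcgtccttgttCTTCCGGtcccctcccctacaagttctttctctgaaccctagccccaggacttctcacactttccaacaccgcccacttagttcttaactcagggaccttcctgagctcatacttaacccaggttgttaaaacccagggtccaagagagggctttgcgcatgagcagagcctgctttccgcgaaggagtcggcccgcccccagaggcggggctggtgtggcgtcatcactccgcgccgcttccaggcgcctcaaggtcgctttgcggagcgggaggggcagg
Ndufs4: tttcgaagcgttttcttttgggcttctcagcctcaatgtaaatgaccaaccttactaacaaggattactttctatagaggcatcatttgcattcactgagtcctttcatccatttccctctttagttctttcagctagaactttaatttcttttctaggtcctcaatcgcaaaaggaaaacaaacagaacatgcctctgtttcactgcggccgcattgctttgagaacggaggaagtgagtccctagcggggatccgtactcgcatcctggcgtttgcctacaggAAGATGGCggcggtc
Atp5sl: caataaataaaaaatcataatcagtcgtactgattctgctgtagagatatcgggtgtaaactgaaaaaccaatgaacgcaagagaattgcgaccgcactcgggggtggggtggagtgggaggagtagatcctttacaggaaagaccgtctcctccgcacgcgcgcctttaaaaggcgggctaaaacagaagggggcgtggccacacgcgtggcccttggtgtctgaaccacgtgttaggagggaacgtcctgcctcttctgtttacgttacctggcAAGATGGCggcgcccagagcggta
Atp5b: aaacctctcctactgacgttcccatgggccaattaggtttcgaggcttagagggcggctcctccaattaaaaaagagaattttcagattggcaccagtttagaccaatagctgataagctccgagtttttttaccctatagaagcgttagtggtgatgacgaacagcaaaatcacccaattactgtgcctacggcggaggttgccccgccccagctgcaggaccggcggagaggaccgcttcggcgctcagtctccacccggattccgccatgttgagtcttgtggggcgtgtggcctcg

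The NRF1 motif, GCGC followed by any base, T and GCGC, stood in the windows of 17 of the 70 genes (24.3%) and of 1254 of all 17492 protein-coding genes with a window (7.17%). The ETS motif CCGGAAG stood in 17 (24.3%) and 2265 (12.9%), and the YY1 motif AAGATGGC in 11 (15.7%) and 624 (3.57%). At least one of the 3 stood in 39 of the 70 (55.7%) and in 3679 of all (21.0%). Both strands were searched, a match at one motif may overlap a match at another, and a match describes letters in the window and not binding.

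Library totals ran from 14939019 to 22143774 counts. Cd14 gave 42 to 129 counts in each KO library, between 2.14 and 6.37 CPM (counts scaled to library size), against 337.4 to 5328 CPM in WT libraries, so every library fitted its genotype label. Within WT cells it was 337.4 to 1150 CPM untreated, 935 to 3119 CPM after LPS 0.1 ng/ml, which overlaps, and 2177 to 5328 CPM after FN or LPS 10 ng/ml, and it does not check the treatment labels of KO libraries. The 8 markers of the oligodendrocyte lineage summed to 118 to 179.6 CPM in KO libraries and 135 to 414 CPM in WT libraries, and the 7 astrocyte markers tested to 11.5 to 44.4 CPM in all. Cell cycle markers (6 genes) summed to 1221 to 1355 CPM in replicate 1 and 189.6 to 257 CPM in replicate 3 of the KO groups, and to 604.6 to 1273 CPM in WT libraries. The ribosomal RNA precursor Rn45s held 8.21% of KO LPS 0.1 ng/ml replicate 2, 3.62% of WT LPS 0.1 ng/ml replicate 3 and 5.92% of WT LPS 10 ng/ml replicate 3, and under 1% in the other 21 libraries. In bulk RNA, fewer cells of a type and less RNA per cell cannot be told apart.

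In untreated cells the respiratory genes differed widely in level for their length. Cox4i1, the regulatory subunit of complex IV, had 183 ± 9.91 CPM per kb of exon in KO cells and 180.2 ± 14.98 CPM per kb in WT cells (SD, n = 3 each). Atp5a1 and Atp5b, the alpha and beta subunits of the catalytic head of ATP synthase, had 176 ± 14.8 and 129.5 ± 16.3 CPM per kb in KO cells, against 182 ± 7.85 and 134 ± 13.003 CPM per kb in WT cells. Atp5a1 and Cox4i1 did not differ from each other beyond these spreads. Complex II lay lower than these 3 genes, from 83.0 ± 1.72 CPM per kb for the membrane anchor Sdhd to 31.0 ± 3.41 CPM per kb for the anchor Sdhc in KO cells, and from 81.0 ± 6.61 to 31.4 ± 1.07 CPM per kb in WT cells. Of the other complex IV subunits, Cox6a1, Cox8a (134.7 ± 44.1 in KO, 132.0 ± 43.0 in WT) and Cox6b1 (122.9 ± 5.34 in KO, 125.9 ± 17.6 in WT) lay above that range. The remaining subunits of complexes IV and V with a known exon length lay within or below it, so whole complexes are not ranked by this. The muscle isoforms Cox6a2 and Cox7a1 were near the bottom in untreated cells, at 1.07 ± 0.0562 and 2.13 ± 0.301 CPM per kb in KO and 1.30 ± 0.404 and 2.19 ± 0.408 CPM per kb in WT, far below their ubiquitous counterparts Cox6a1 (158 ± 37.3 in KO, 154 ± 45.2 in WT) and Cox7a2 (48.5 ± 4.94 in KO, 48.4 ± 5.51 in WT).

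In WT cells, FN and LPS at 10 ng/ml shifted most respiratory subunits upward relative to the other genes, and the same 3 genes, Atp5sl, Atp5s and Cox4nb, fell steeply after both. Atp5a1 of ATP synthase had the highest log2 change of the 84 on the TMM scale after each. It had 1013, 878 and 946 CPM in the 3 FN libraries of WT cells, 1018, 896 and 912 CPM in the LPS 10 ng/ml libraries and 587, 582 and 542 CPM in the untreated libraries, with no overlap. Its log2 change was 0.73 ± 0.11 (SE) after FN and 0.72 ± 0.11 after LPS, with adjusted p-values from edgeR's quasi-likelihood test of 2.34e-05 and 2.65e-05. These CPM carry edgeR's TMM scaling (trimmed mean of M-values), which assumes that most genes do not change. As shares of the library totals, without that step, Atp5a1 had 657, 678 and 699 CPM after FN, 679, 690.1 and 641 CPM after LPS and 689.9, 729 and 702 CPM untreated, and the direction of its change rests on the scaling.

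The scaling decided the sign for most members. On the TMM scale the median member changed by 0.30 (log2) after FN and 0.29 after LPS 10 ng/ml in WT cells, against medians of 0.01 and -0.01 over all 13294 tested genes, and 72 of the 84 lay above the median of all genes after LPS. As shares of the library totals, the median member changed by -0.50 after FN and -0.52 after LPS, and the median gene by -0.78 and -0.80. With upper quartile scaling the medians of members were 0.03 and 0.03 and those of all genes -0.25 and -0.25, and with DESeq's median ratios (RLE) they were 0.35 and 0.36 for members and 0.07 and 0.06 for all genes. A scaling moves all genes of a comparison by about the same amount, so the distance between the median member and the median gene is 1 measurement and not 4. Counts of the 84 genes made up 0.466 to 0.512% of each WT FN library, 0.440 to 0.535% of each WT LPS 10 ng/ml library and 0.612 to 0.689% of each untreated WT library, so their share of all counts was lower in every stimulated library. The TMM factors were 0.648 to 0.773, 0.668 to 0.770 and 1.18 to 1.30 in these groups.

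**Figure D1:**
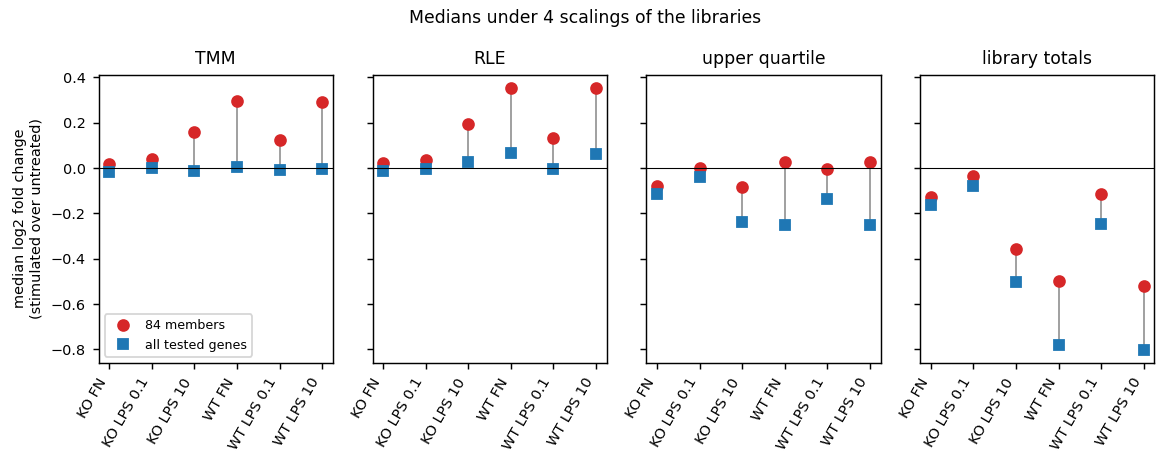
Median log2 change of the 84 members (circles) and of all tested genes (squares) after each stimulus against untreated cells of the same genotype, in 1 panel per scaling of the libraries. Circles and squares move together from panel to panel, since a scaling shifts all genes alike, and both lie below 0 for WT FN and LPS 10 ng/ml without composition scaling.

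Counted gene by gene on the TMM scale, 23 members were higher and 3 lower after LPS 10 ng/ml in WT cells, 27.4% and 3.57% of the 84, where 23.3% and 26.1% of all tested genes were called. After FN the counts were also 23 and 3, where 23.7% and 26.5% of all genes were called. In this fit without a replicate block, the share of members called higher was close to the background, and the share called lower was below it. The members that stood apart in replicate 1, described below, are part of the 84, and none of them was called in this fit. When the replicate number was taken as a block within each genotype, 49 of the 84 were higher and 5 lower after LPS (background 34.1% and 36.1%). After FN, 52 of the 84 were higher and 5 lower (background 35% and 37%). With the block, the share called higher was thus above the background after both stimuli, and the share called lower was below it. As shares of library totals, none of the 84 was higher after either stimulus in the sign of its change, and 3 of the 26 called members, the 3 that fell, kept their sign under all 4 scalings after each stimulus.

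Markers of microglia and of other cells moved with these stimuli in WT cells. The 8 microglia markers summed to 5775 to 6181 CPM after FN, 5761 to 6280 CPM after LPS 10 ng/ml and 7177 to 8108 CPM untreated, with no overlap, and 3 of the 8 (Cx3cr1, P2ry12 and Tmem119) were called lower after FN and Cx3cr1 alone after LPS. The 2 vascular and fibroblast markers tested of 6, Pdgfrb and Pecam1, summed to 8.24 to 22.01 CPM after FN, 8.53 to 27.5 CPM after LPS and 0.757 to 2.27 CPM untreated, and Pdgfrb was called higher after both. Of the astrocyte markers Gja1 was called higher after both, and of the oligodendrocyte lineage Cnp. The part of these changes in those of the members was not tested.

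Complexes III, IV and V had higher medians than complexes I and II on the TMM scale in WT cells, and the calls named for them turn negative as shares of library totals. In complex V, 5 of 15 subunits were called higher after LPS 10 ng/ml, Atp5a1, Atp5b, Atp5g3, Atp5e and Atp5j, with a median over the 15 of 0.37, and the same 5 after FN, with a median of 0.33. Atp5b had 1021, 839.7 and 829.6 CPM after FN, 1020.0, 848 and 786 CPM after LPS and 613, 583 and 506 CPM untreated, with no overlap. Its log2 change was 0.66 ± 0.17 after FN and 0.64 ± 0.17 after LPS (edgeR adjusted p 0.00263 and 0.00333). In complex III, 5 of 9 were called higher after LPS and after FN, Cyc1, Uqcrq, Uqcrfs1, Uqcrc1 and Uqcrc2, with medians of 0.41 and 0.37. Cyc1, the cytochrome c1 heme protein, had 114, 92.8 and 93.1 CPM after FN, 98.7, 90.7 and 82.5 CPM after LPS and 65.3, 70.0 and 55.7 CPM untreated. The lowest stimulated library was above the highest untreated one, and the log2 change was 0.65 ± 0.14 after FN and 0.51 ± 0.14 after LPS (edgeR adjusted p 0.000583 and 0.00443). Uqcrfs1, the Rieske iron-sulfur protein, changed by 0.41 ± 0.14 after FN and 0.44 ± 0.14 after LPS (edgeR adjusted p 0.0221 and 0.0152).

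Complex IV had a median of 0.46 over its 13 subunits after FN and 0.42 after LPS 10 ng/ml on the TMM scale. Cox4i1, Cox7a2 and Cox6b1 were called higher after both, though lower in sign as shares of library totals. Cox4i1 had 398, 341 and 419 CPM after FN, 399, 339.8 and 371 CPM after LPS and 279, 256 and 303 CPM untreated, which do not overlap, a log2 change of 0.47 ± 0.10 and 0.40 ± 0.10 (edgeR adjusted p 0.000836 and 0.00273). Cox5a, the subunit next to Cox4i1 in the enzyme, was called after FN with a change of 0.62 ± 0.25 (edgeR adjusted p 0.0471). Cox6a2 and Cox7a1, the muscle isoforms, were not called in either comparison, and they had only 0.529 to 1.51 CPM and 0.585 to 1.92 CPM over all 24 libraries.

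Complex I was more mixed, with 8 of 35 subunits called higher on the TMM scale after LPS 10 ng/ml and 8 after FN, medians of 0.21 and 0.22, and negative signs as shares of library totals. Ndufb6, Ndufa1, Ndufa2, Ndufa5, Ndufa10 and Ndufs4 were each called after both. Ndufs4, an accessory subunit whose loss causes Leigh syndrome in humans, had 34.1, 32.2 and 36.6 CPM after FN, 33.7, 34.2 and 35.3 CPM after LPS and 26.0, 26.6 and 25.5 CPM untreated. These libraries varied little and did not overlap, and the log2 change was 0.40 ± 0.08 after each (edgeR adjusted p 0.000391 after FN and 0.000379 after LPS). The catalytic subunits did not all move. Ndufs1, which carries iron-sulfur clusters, changed by -0.02 ± 0.09 after LPS and Ndufv1, which binds NADH, by 0.03 ± 0.07 on the TMM scale, and neither was called (edgeR adjusted p 0.909 and 0.782).

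Complex II, the only complex with no proton pumping and no mitochondrially encoded subunit, moved least on the TMM scale, with medians of 0.12 after FN and 0.09 after LPS 10 ng/ml, and like the rest it was lower as a share of library totals. Sdha, the flavoprotein, had 268, 253 and 265 CPM after FN, 259, 259.7 and 251 CPM after LPS and 229.9, 239 and 243 CPM untreated. Its log2 change after LPS was 0.12 ± 0.07, and those of Sdhb, the iron-sulfur subunit, and Sdhd were -0.04 ± 0.08 and 0.06 ± 0.09, none of them called (edgeR adjusted p 0.219, 0.743 and 0.607). Sdhc alone was called, with 0.23 ± 0.07 after FN and 0.27 ± 0.07 after LPS (edgeR adjusted p 0.0123 and 0.00421), and upper quartile scaling turned the first of these to -0.025.

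Some of these calls rest on single libraries. Without WT LPS 10 ng/ml replicate 1 or untreated WT replicate 2, neither Uqcrq nor Uqcrfs1 was called after LPS, and Uqcrq was also lost without untreated WT replicate 3, with edgeR adjusted p-values up to 0.137 and 0.0999. After FN, Uqcrq was lost without WT FN replicate 1 or untreated WT replicate 3 (up to 0.0778) and Sdhc without WT FN replicate 3 or untreated WT replicate 2 (up to 0.057). Cox5a after FN was lost in 14 of 24 such fits (up to 0.28).

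**Figure D2:**
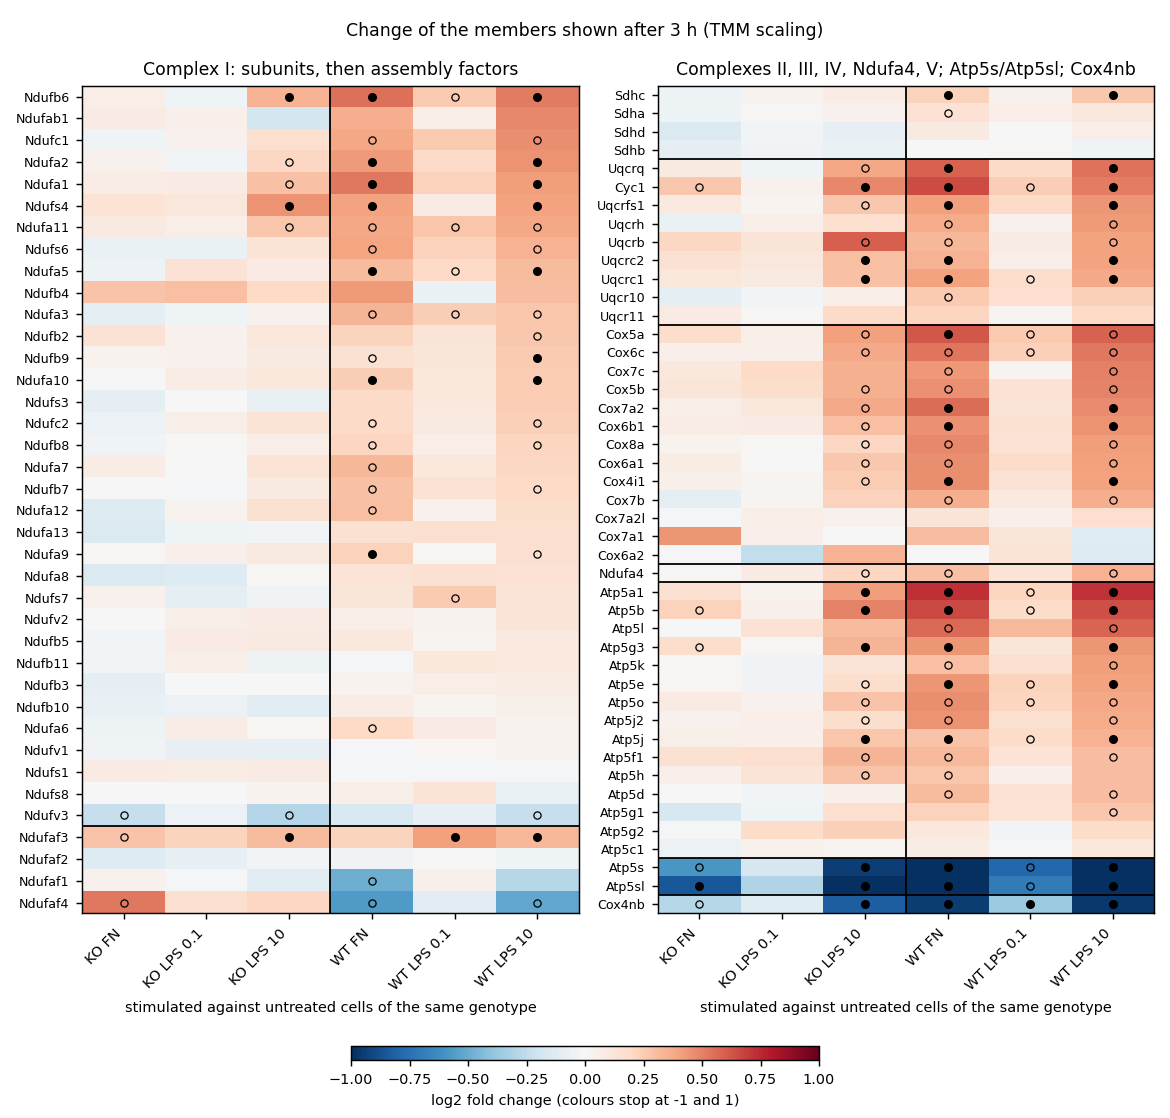
Log2 change of the members shown singly (rows, in order of complex) after each stimulus against untreated cells of the same genotype (columns, KO left of WT) on the TMM scale. Filled circles mark an edgeR adjusted p under 0.05 without a replicate block and open circles those called only with one; the WT FN and WT LPS 10 columns are red over most of complexes III, IV and V, and Atp5s, Atp5sl and Cox4nb are blue.

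In KO cells LPS at 10 ng/ml gave fewer calls, each of them a gene also called in WT cells in the same direction, and FN gave 1. After LPS, 10 members were higher and 3 lower on the TMM scale, where 21.2% and 21.6% of all genes were called, and 31 were higher and 4 lower with the replicate block (background 31.8% and 34.2%). The 10 were Atp5a1, Atp5b, Atp5g3, Atp5j, Cyc1, Uqcrc1, Uqcrc2, Ndufs4, Ndufb6 and Ndufaf3. As shares of library totals 1 of the 84 had a positive change. The median member changed by 0.16 on the TMM scale against -0.01 for all genes, and by -0.36 against -0.50 as shares of library totals. After FN, 0 members were higher and 1 was lower, where 9.23% and 7.17% of all genes were called, and 3 had an unadjusted p under 0.05. With the replicate block 5 were higher and 4 lower after FN (background 21.5% and 22.5%), and the medians were 0.02 for members and -0.02 for all genes on the TMM scale, against -0.13 and -0.16 as shares of library totals.

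Atp5a1 shows this order of groups. KO cells had 672, 581 and 587 CPM after FN, 825, 686 and 701 CPM after LPS 10 ng/ml and 603, 511 and 544 CPM untreated. The LPS libraries stood above all untreated ones, whereas the FN libraries overlapped them. The log2 change after LPS was 0.42 ± 0.11 (edgeR adjusted p 0.00552), and as a share of library totals it was -0.079. Ndufs4 had 32.7, 34.9 and 32.1 CPM after LPS and 21.7, 24.2 and 27.0 CPM untreated in KO cells, a change of 0.45 ± 0.08 (edgeR adjusted p 0.00017), and -0.034 as a share of library totals. Cyc1 changed by 0.48 ± 0.14 and Atp5b by 0.50 ± 0.17 (edgeR adjusted p 0.0082 and 0.0214), both near 0 as shares of library totals, at -0.019 and -0.00055. Atp5b was not called without KO LPS 10 ng/ml replicate 1 or untreated KO replicate 2 (up to 0.126), Cyc1 without KO LPS 10 ng/ml replicate 1 (0.0549), and Ndufb6 without KO LPS 10 ng/ml replicate 3 or untreated KO replicate 1 (up to 0.0738).

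A ratio of members within one library does not depend on how the libraries are scaled, so the counts of each complex were divided by those of complex II in the same library. The ratios used only genes without a near-identical pseudogene transcript and less than 2-fold apart in replicate 1, a measure chosen after the values had been seen. For complex V (7 genes) the ratio was 4.55, 4.04 and 3.87 in WT FN libraries, 4.53, 3.998 and 3.93 in WT LPS 10 ng/ml libraries and 3.16, 3.04 and 2.66 in untreated WT libraries, a log2 difference of 0.49 for both. It was 3.72, 3.13 and 3.28 in KO FN libraries, 4.135, 3.42 and 3.68 in KO LPS 10 ng/ml libraries and 3.199, 2.713 and 2.715 in untreated KO libraries, log2 differences of 0.23 and 0.38. All groups but KO FN stood clear of their untreated libraries. The exact permutation p (two-sided) was 0.1, the smallest that 3 libraries against 3 allow, for WT FN, WT LPS and KO LPS, and 0.2 for KO FN.

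For complex III (7 genes) the log2 differences of this ratio were 0.30 after FN and 0.30 after LPS 10 ng/ml in WT cells, and 0.17 and 0.28 in KO cells, with exact permutation p-values of 0.1, 0.1, 0.2 and 0.1. For complex IV (8 genes) they were 0.35 and 0.31 in WT cells and 0.14 and 0.26 in KO cells (exact permutation p 0.2, 0.2, 0.4 and 0.3). For complex I (28 genes) they were 0.10 and 0.09 in WT cells and 0.07 and 0.08 in KO cells (exact permutation p 0.3, 0.4, 0.3 and 0.1). Among libraries of the same replicate number the stimulated ratio was above the untreated ratio in 3 of 3 pairs in each of these 16 cases. The 4 complexes share the counts of complex II as denominator, so the 16 cases are not separate observations. Complex II was also the complex that moved least on the TMM scale in WT cells, and the measure was chosen with the values known. The shared direction of the 16 cases is therefore not an independent test of a rise. In each of the 4 comparisons the difference was largest for complex V and smallest for complex I, and none of the 16 could pass 0.05 in this design. Sums weigh genes by their counts, so the most abundant genes set most of each ratio. In untreated WT replicate 1 Atp5a1 and Atp5b had 11293 and 11791 counts, and Atp5g3, the next of the 7 in complex V, had 2555. The order of the ratios is therefore not that of typical subunits. Between Atp5a1 and Sdha alone the ratio was 3.78, 3.47 and 3.57 after FN, 3.92, 3.45 and 3.63 after LPS and 2.55, 2.44 and 2.24 untreated in WT cells, and 2.84, 2.65 and 2.48 after FN, 3.198, 2.97 and 2.78 after LPS and 2.56, 2.29 and 2.104 untreated in KO cells.

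**Figure D3:**
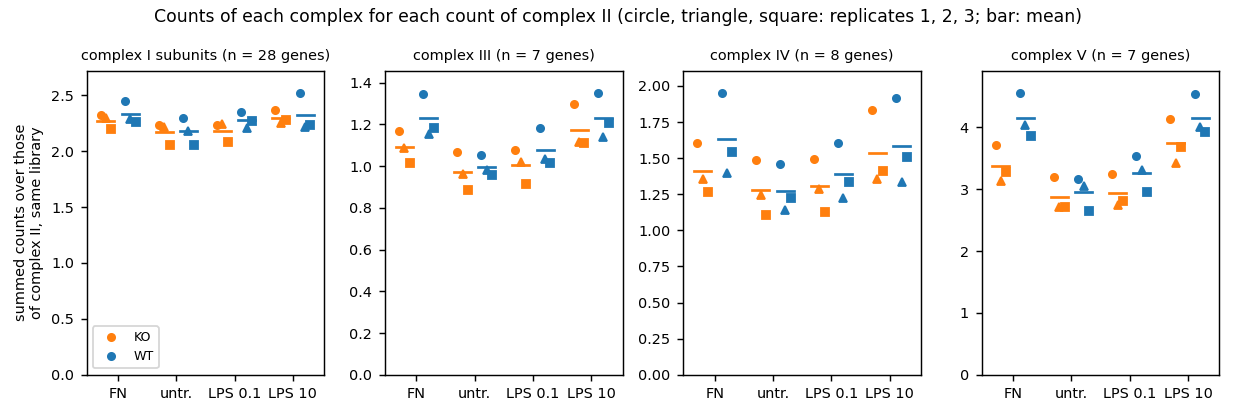
Summed counts of complexes I, III, IV and V divided by those of complex II in the same library, by treatment, with KO left of WT, each point a library and each bar a mean of 3. The WT FN and WT LPS 10 ng/ml points for complex V lie at 3.87 to 4.55, above the untreated points at 2.66 to 3.16.

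Atp5sl, Atp5s and Cox4nb were the 3 members called lower after FN and LPS 10 ng/ml in WT cells and after LPS 10 ng/ml in KO cells, and in these comparisons they fell under all 4 scalings. In sign alone, 6, 9 and 12 of the 84 members were lower under all 4 scalings in these comparisons, these 3 among them. Atp5sl encodes the protein DMAC2, an assembly factor for the membrane arm of complex I in human cells. It had 5.16, 7.80 and 4.85 CPM after FN, 4.62, 6.96 and 5.97 CPM after LPS and 22.9, 21.8 and 29.2 CPM untreated in WT cells. In KO cells it had 12.3, 16.2 and 13.3 CPM after FN, 7.41, 8.12 and 8.40 CPM after LPS and 23.6, 31.5 and 20.02 CPM untreated. All stimulated libraries lay below all untreated ones of the same genotype. Its log2 change was -2.05 ± 0.26 after FN and -2.07 ± 0.26 after LPS in WT cells (edgeR adjusted p 2.24e-06 and 2.09e-06), and -0.85 ± 0.25 and -1.65 ± 0.25 in KO cells (0.0245 and 3.58e-05). The call after FN in KO cells was lost without KO FN replicate 1 or 3 or untreated KO replicate 2 (edgeR adjusted p up to 0.14).

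Cox4nb had 25.1, 24.4 and 24.6 CPM after FN, 22.9, 24.6 and 25.8 CPM after LPS 10 ng/ml and 49.6, 47.2 and 46.6 CPM untreated in WT cells, close within each group and far apart between them. In KO cells it had 38.0, 40.5 and 47.2 CPM after FN, 25.03, 28.3 and 33.4 CPM after LPS and 50.1, 48.6 and 54.6 CPM untreated. The log2 change was -0.95 ± 0.11 after FN and -0.97 ± 0.11 after LPS in WT cells (edgeR adjusted p 6.81e-07 and 5.84e-07) and -0.82 ± 0.11 after LPS in KO cells (6.68e-06). After FN in KO cells it changed by -0.29, with an edgeR adjusted p of 0.0825 and, with the replicate block, 0.0043. Cox4nb and Cox4i1 are neighbours, and on the TMM scale Cox4i1 was higher where Cox4nb fell. Their annotated spans overlap on opposite strands, chr8:120668222-120674207 (plus) for Cox4i1 and chr8:120653914-120668573 (minus) for Cox4nb. Whether the authors' counting used the strand is not given in the sources used here. Reads from the overlap could thus be shared between the 2, which was not tested.

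Atp5s, which encodes the coupling factor B of ATP synthase, lies below the level set for naming genes and was chosen after its values were seen. It had 0.766, 1.75 and 1.21 CPM after FN, 1.24, 1.05 and 1.29 CPM after LPS 10 ng/ml and 2.70, 3.93 and 5.92 CPM untreated in WT cells. The log2 change was -1.75 ± 0.32 after FN and -1.81 ± 0.32 after LPS (edgeR adjusted p 0.000149 and 0.000117). In KO cells it changed by -0.94 ± 0.31 after LPS (edgeR adjusted p 0.0192), a call lost without KO LPS 10 ng/ml replicate 1 or untreated KO replicate 3 (up to 0.097). After FN in KO cells it changed by -0.58, with an edgeR adjusted p of 0.239 and, with the replicate block, 0.0158.

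Some assembly factors and a complex I subunit were lower in WT cells in the fit with the replicate block alone. Ndufaf4 had 6.48, 6.56 and 5.45 CPM after FN, 7.27, 6.21 and 5.601 CPM after LPS 10 ng/ml and 9.56, 10.1 and 7.74 CPM untreated, with no overlap. It changed by -0.57 ± 0.28 and -0.52 ± 0.28, with edgeR adjusted p-values of 0.105 and 0.139, and of 0.00013 and 0.000356 with the block. In KO cells Ndufaf4 changed by 0.53 ± 0.28 after FN (edgeR adjusted p 0.234, and 0.000151 with the block). Ndufaf1, another complex I assembly factor, had 6.34, 5.76 and 7.34 CPM after FN and 8.47, 8.28 and 10.5 CPM untreated in WT cells, a change of -0.49 ± 0.23 (edgeR adjusted p 0.0879, and 0.00288 with the block). Ndufv3, an accessory subunit, changed by -0.23 ± 0.12 after LPS in WT cells (edgeR adjusted p 0.131, and 0.0167 with the block).

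**Figure D4:**
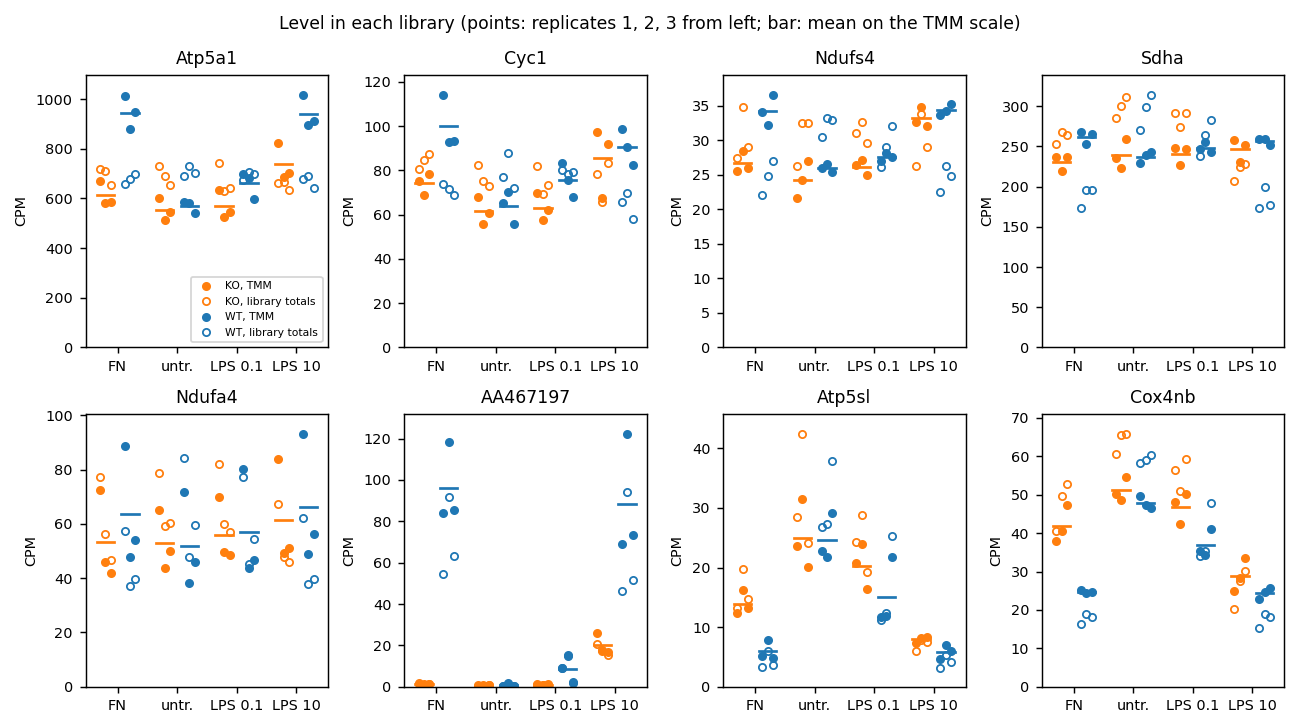
Level of 8 genes in each library, in CPM on the TMM scale (filled) and as shares of library totals (open), by treatment, with KO left of WT and a bar at each TMM mean. Atp5a1 and Cyc1 stand higher after FN and LPS 10 ng/ml in WT cells on the filled points only, while Atp5sl and Cox4nb fall and AA467197 rises on both.

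Few members were called at the lower dose of LPS. At 0.1 ng/ml in WT cells 1 member was higher and 1 lower, where 9.94% and 5.66% of all genes were called. Ndufaf3, a complex I assembly factor, had 11.3, 11.1 and 10.8 CPM against 9.04, 8.28 and 7.74 CPM untreated, a log2 change of 0.41 ± 0.12 (edgeR adjusted p 0.0213). Cox4nb had 35.3, 34.3 and 41.0 CPM, a change of -0.37 ± 0.11 from the untreated cells (edgeR adjusted p 0.0227). Each call was lost on leaving out any of several single libraries, 4 for Ndufaf3 and 5 for Cox4nb (edgeR adjusted p up to 0.106 and 0.174), and in a fit of the 2 groups alone. With the replicate block 15 members were higher and 3 lower (background 21.2% and 20.4%). In KO cells LPS at 0.1 ng/ml gave 0 calls among the members in edgeR, with 0 at an unadjusted p under 0.05, 0 by DESeq2 and 0 with the replicate block, where 0.722% of all genes were called higher and 0.00752% lower (3.08% and 0.797% with the block).

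Set directly against 0.1 ng/ml, LPS at 10 ng/ml gave 6 members higher and 3 lower in WT cells, where 14.8% and 17.4% of all genes were called, and 7 higher and 2 lower in KO cells, where 18.3% and 18.5% were. With the replicate block these were 32 and 6 in WT cells (background 27.9% and 29.1%) and 24 and 4 in KO cells (background 30.1% and 32.7%). Without the 3 libraries rich in Rn45s the counts were 3 members in WT cells and 5 in KO cells. On the TMM scale Atp5a1 changed by 0.51 ± 0.11 in WT cells and 0.38 ± 0.11 in KO cells (edgeR adjusted p 0.00169 and 0.0125), and by -0.047 and -0.041 as shares of library totals. The KO call was lost on leaving out either of 2 single libraries. Atp5sl fell under every scaling, by 1.37 on the log2 scale in WT cells and by 1.35 in KO cells (edgeR adjusted p 0.000408 and 0.000353), and Cox4nb fell by 0.59 in WT and 0.70 in KO cells (0.000351 and 5.77e-05). As shares of library totals only 0 of the 84 members were positive in WT cells and 4 in KO cells.

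Untreated KO and WT cells did not separate on these genes: edgeR called 0 members, with 0 at an unadjusted p under 0.05, and 0 by DESeq2, where 0% of all genes were called higher and 0.00752% lower. At LPS 0.1 ng/ml edgeR also called 0 members, with 4 at an unadjusted p under 0.05, and 2 by DESeq2 (background 2.97% and 6.33%). At LPS 10 ng/ml 0 were higher and 3 lower in KO cells on the TMM scale (background 8.05% and 7.85%), Ndufa2 by 0.43, Atp5a1 by 0.35 and Sdhc by 0.22, with edgeR adjusted p-values of 0.0331, 0.0387 and 0.0497. Sdhc was positive as a share of library totals, at 0.11. The 3 calls were lost in 3, 7 and 22 of 24 fits that each left out 1 library, and none was called in a fit of the 2 groups alone. Without the 3 libraries rich in Rn45s 1 member was called. With a replicate block over all libraries 1 was higher and 8 lower (background 13% and 12.1%).

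After FN the genotypes parted. In KO cells 5 members were higher and 20 lower than in WT cells on the TMM scale, where 21% and 17.6% of all genes were called, and 5 and 37 with a replicate block over all libraries (background 25.7% and 24.4%). A fit of the 2 groups alone called 4 higher and 7 lower. The median member was at -0.27 and the median gene at 0.02, whereas as shares of library totals all 84 members were higher in KO cells, the medians being 0.41 for members and 0.68 for all genes. The distance between these medians is fixed by the counts and does not depend on the scale. The 20 lower members were 8 of complex I, Sdhc, 4 of complex III, 2 of complex IV and 5 of complex V. Atp5a1 was the furthest of them, 672, 581 and 587 CPM in KO cells and 1013, 878 and 946 CPM in WT cells, a log2 difference of -0.62 ± 0.11 (edgeR adjusted p 0.000203), and 0.035 as a share of library totals. Atp5b, at -0.48 (edgeR adjusted p 0.0295), and Uqcrq, at -0.50 (0.0368), were positive as shares of library totals, at 0.18 and 0.16. Both calls were lost without KO FN replicate 2 or 3 or WT FN replicate 1 (up to 0.141 and 0.181).

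The 5 members called higher in KO cells after FN kept that direction under all 4 scalings, as did all 9 members positive on the TMM scale. Since all 84 were positive as shares of library totals, the kept direction does not set the 5 apart. The 5 were Atp5sl, with a log2 difference of 1.23 ± 0.25 (edgeR adjusted p 0.000709), Atp5s at 1.25 ± 0.32 (0.0039), Cox4nb at 0.76 ± 0.11 (1.78e-05), and the complex I assembly factors Ndufaf4 at 1.11 ± 0.28 (0.00389) and Ndufaf1 at 0.67 ± 0.23 (0.0259). Ndufaf4 had 10.7, 11.8 and 17.5 CPM in KO cells and 6.48, 6.56 and 5.45 CPM in WT cells. The Ndufaf1 call was lost on leaving out any of 4 single libraries (up to 0.0919). In the same cells the oligodendrocyte lineage markers summed to 119.9 to 149.9 CPM in KO and 210.6 to 395.2 CPM in WT, and 1 of the 8, Cnp, was called lower, by 1.70 on the log2 scale (edgeR adjusted p 8.77e-06). The 7 astrocyte markers tested summed to 12.5 to 20.5 CPM in KO and 17.2 to 43.5 CPM in WT, and 1 of them, Gja1, was called lower, at -2.6 (0.0126), a call lost without KO FN replicate 1 or WT FN replicate 3 (up to 0.0656). The 2 vascular and fibroblast markers summed to 1.44 to 3.34 CPM in KO and 8.24 to 22.01 CPM in WT, and Pdgfrb was called lower, at -2.97 (0.000776). The 8 microglia markers summed to 6639 to 7570 CPM in KO and 5775 to 6181 CPM in WT, and Cx3cr1, Tmem119 and Csf1r were called higher in KO cells. The part of these other cells in the differences between genotypes was not tested.

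The response itself differed between genotypes after FN for 6 members, tested as the log2 change in KO less the log2 change in WT cells (2 higher and 4 lower, background 11.8% and 11.3%). Atp5sl, at 1.21 ± 0.35 (edgeR adjusted p 0.0175), and Cox4nb, at 0.67 ± 0.15 (0.00343), fell by less in KO cells, on all 4 scalings. All 84 members were positive as shares of library totals in this test, so the kept sign does not set Atp5sl and Cox4nb apart. Atp5a1, at -0.58 ± 0.16 (0.0117), Ndufb6 at -0.48 (0.0335), Atp5e at -0.42 (0.0409) and Cox4i1 at -0.41 (0.0459) were negative on the TMM scale and positive as shares of library totals, at 0.068, 0.16, 0.22 and 0.24. With the replicate block nested in genotype 5 members were higher and 38 lower (background 26.1% and 23.2%). Without untreated WT replicate 3 Atp5sl had an adjusted p of 0.0516, and Ndufb6, Atp5e and Cox4i1 were lost in 8, 10 and 15 of 24 such fits. After LPS 10 ng/ml no member's response was called different in edgeR, with 0 at an unadjusted p under 0.05 and 0 by DESeq2, where 1.96% and 3.32% of all genes were, and 2 members were called with the replicate block (background 11.3% and 10.4%). After LPS 0.1 ng/ml 0 were called, with 1 at an unadjusted p under 0.05 and 0 by DESeq2 (background 0.188% and 2.11%), and 0 with the replicate block (background 5.75% and 7.64%).

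FN and LPS at 10 ng/ml, set against each other, gave 0 members called in WT cells in edgeR, with 0 at an unadjusted p under 0.05 and 0 by DESeq2, where 0% of all genes were called in either direction. In KO cells 2 members were higher and 1 lower after FN than after LPS (background 7.55% and 9.43%), and 3 and 21 with the replicate block (background 22.1% and 22.7%). Atp5sl was higher by 0.80 and Cox4nb by 0.54 (edgeR adjusted p 0.0331 and 0.00202), and Ndufs4 was at -0.32 (0.0111) on the TMM scale and at 0.032 as a share of library totals. Atp5sl was lost on leaving out any of 5 single libraries and Ndufs4 on leaving out either of 2. These comparisons and those with untreated cells share libraries.

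Ndufa4 had a close relative that moved far more. AA467197 is not a member; it encodes the mouse counterpart of human NMES1 (C15orf48), a paralogue of Ndufa4 that can take its place in complex IV in human cells. In KO cells it had 1.57, 0.976 and 1.26 CPM after FN, and over the LPS doses 0.579, 0.513 and 0.666 CPM untreated, 0.940, 0.885 and 0.967 CPM at 0.1 ng/ml and 26.0, 17.6 and 16.9 CPM at 10 ng/ml. In WT cells it had 83.8, 119 and 85.7 CPM after FN, and over the LPS doses 0.312, 1.28 and 0.444 CPM untreated, 9.20, 14.9 and 1.86 CPM at 0.1 ng/ml and 69.3, 122 and 73.2 CPM at 10 ng/ml. Every WT library given a stimulus lay above every untreated one. The log2 change in WT cells was 7.12 ± 0.65 after FN, 3.65 ± 0.57 after LPS 0.1 ng/ml and 7.0 ± 0.64 after LPS 10 ng/ml (edgeR adjusted p 3.77e-08, 0.000152 and 4.38e-08), the second of them with an adjusted p of 0.0513 in a fit of the 2 groups alone.

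In KO cells AA467197 rose by 5.10 ± 0.60 after LPS 10 ng/ml (edgeR adjusted p 1.75e-06) and changed by 1.11 ± 0.57 after FN (0.225). The change after FN in KO minus that in WT was -6.01 ± 0.82 (edgeR adjusted p 3.17e-05), and the same after LPS 10 ng/ml was -1.90 ± 0.77 (0.209). These changes are large beside the shift between scalings. Ndufa4 itself had 88.6, 47.8 and 54.0 CPM after FN, 93.1, 49.0 and 56.4 CPM after LPS 10 ng/ml and 71.6, 38.2 and 45.9 CPM untreated in WT cells, so its libraries overlapped and replicate 1 stood apart in each group. It changed by 0.29 ± 0.34 after FN and 0.35 ± 0.34 after LPS (edgeR adjusted p 0.535 and 0.443), and with the replicate block the adjusted p-values were 0.00135 and 0.000276, on the TMM scale, while as shares of library totals both changes were negative, -0.51 and -0.46.

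Many members stood apart in replicate 1 of every group. In 13 of 83 members searched the level in replicate 1 was at least 2-fold that of the other replicates, as a median over the 8 groups, against 649 of 12350 genes (5.26%). Of the 13, 12 were among the 20 members with a pseudogene transcript at least 95% identical over 100 bases or more, and Cox5b was the one without. The median log2 ratio of replicate 1 to the others was 1.15 for the 20 and -0.07 for the 63 without such a copy. Atp5g2, which encodes the c ring of ATP synthase together with Atp5g1 and Atp5g3, had 42.4 to 54.3 CPM in replicates 1 and 0.06 to 0.521 CPM in the others. The levels of Atp5g1, Atp5g2, Atp5l, Cox7c, Cox5b, Ndufb4 and the rest of the 13 are therefore uncertain, and the cause was not tested. None of the members called in WT or KO cells after LPS 10 ng/ml, in WT cells after FN or between genotypes after FN was among the 20 or was Cox5b.

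**Figure D5:**
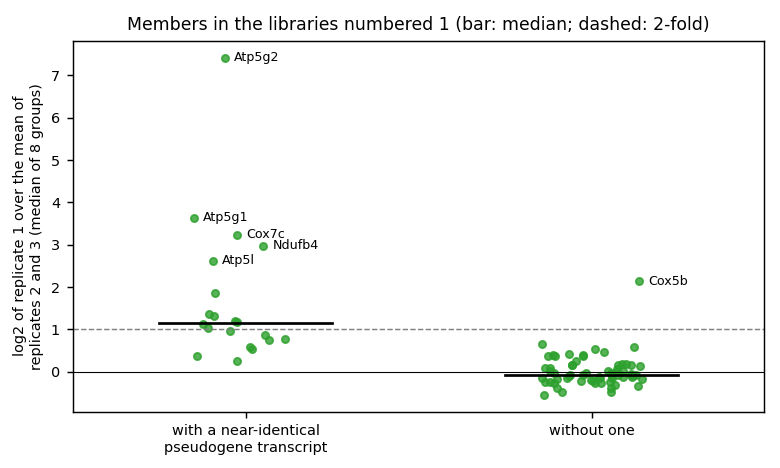
Log2 of the level in replicate 1 over the mean of replicates 2 and 3, as a median over the 8 groups, for members with a near-identical pseudogene transcript (left) and without one (right), each point a gene. The dashed line marks 2-fold; 12 of the 20 genes on the left and 1 of the 63 on the right reach it.

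Other genes of the pathway, from lists written from general knowledge, were called in both directions in 3 of the 4 lists. Of 36 tested assembly and carrier genes 11 were higher and 11 lower (30.6% each) in WT cells after LPS 10 ng/ml on the TMM scale, where 23.3% and 26.1% of all genes were called, 9 and 11 after FN, and in KO cells 5 and 7 after LPS and 0 and 2 after FN. The shares over all genes in these 3 comparisons were 23.7% and 26.5%, 21.2% and 21.6%, and 9.23% and 7.17%, and they hold for the lists that follow too. Cox18, which inserts a complex IV subunit into the membrane, and Cox17, which carries copper for it, rose by 2.11 ± 0.19 and 1.88 ± 0.17 after LPS in WT cells (edgeR adjusted p 2.78e-08 and 2.77e-08). Tmem126b and Tmem186, of the complex that builds the complex I membrane arm, fell by 1.94 and 1.75 on the log2 scale (4.03e-06 and 1.05e-07). All 4 kept their direction as shares of library totals. That scale lowers genes in this comparison, so it could have turned the rises of Cox18 and Cox17 but not the falls.

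Of 12 tested regulators of mitochondrial biogenesis 6 were higher and 3 lower (50% and 25%, where 23.3% and 26.1% of all genes were) after LPS 10 ng/ml in WT cells, 7 and 3 after FN, and in KO cells 6 and 3 after LPS and 5 and 1 after FN. Ppargc1b, a coactivator of respiratory genes, had 32.0, 22.2 and 20.1 CPM after FN, 28.1, 24.2 and 22.7 CPM after LPS and 2.23, 2.75 and 1.18 CPM untreated in WT cells. In KO cells it had 0.628, 0.570 and 0.240 CPM after FN, 5.01, 2.22 and 2.85 CPM after LPS and 2.22, 1.10 and 1.77 CPM untreated. The stimulated WT libraries lay far above the others, and KO FN libraries lay below all untreated KO libraries. Its log2 change was 3.59 ± 0.46 after FN and 3.6 ± 0.46 after LPS in WT cells (edgeR adjusted p 2.88e-06 and 2.79e-06), and -1.79 ± 0.47 and 0.98 ± 0.43 in KO cells (0.0123 and 0.0772). The KO call after FN was lost without KO FN replicate 3 or untreated KO replicate 1 (up to 0.067), and the KO change after LPS had an adjusted p of 0.00256 with the replicate block.

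Pprc1, a relative of Ppargc1b, rose by 1.06 ± 0.26 after LPS 10 ng/ml in WT cells and Gabpb1, a subunit of GABP, by 1.70 ± 0.13 (edgeR adjusted p 0.00185 and 3.57e-09), whereas Gabpb2, the alternative subunit, fell by 1.14 (2.52e-06). As shares of library totals these were 0.27, 0.90 and -1.94. Of 22 tested genes of the tricarboxylic acid cycle and pyruvate entry 7 were higher and 2 lower (31.8% and 9.09%) in WT cells after LPS and the same numbers after FN, with 6 and 2 and 4 and 2 in KO cells. Pdk2, a kinase that turns pyruvate dehydrogenase off, and Pdp1, a phosphatase that turns it on, both fell after LPS in WT cells, by 2.05 and 0.84 on the log2 scale (edgeR adjusted p 5.79e-05 and 0.00534), under both scalings. Shares of library totals lower genes in this comparison, so that scale could not have turned these falls. Dld, the shared E3 subunit of the dehydrogenases, rose by 1.09 (5.5e-06) on the TMM scale and had 0.30 as a share of library totals. Cs, citrate synthase, was at 0.72 (0.00181) and -0.083 on those scales. Of 8 uncoupling, exchange and inhibitor genes edgeR called 0 in these 4 comparisons, with 1 at an unadjusted p under 0.05 after FN in WT cells and 0 in the other 3. DESeq2 called 1 higher in WT cells after each stimulus, and the replicate block 5 higher and 1 lower there. The 13 genes of the mitochondrial DNA could not be analysed here, since 0 of them were found by symbol in the deposited count table.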

How the data were processed

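Trizol RNA of each culture was made into TruSeq RNA libraries and sequenced on a HiSeq2000, per the labels' protocols. The submitters' processing notes name HTSeq 0.5.4 and DESeq, Bowtie2 2.1.0 with SAMtools 0.1.19, CASAVA 1.8.2 with FastQC 0.10.0, and the build mm10. The annotation and the use of strand are not given in the sources used here. The deposited counts are whole reads for 18919 gene symbols. The deposited normalized signal, for 12889 of these symbols, is the count over a single divisor for each library (largest deviation 0.0057).

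Testing used edgeR 4.0.16 under R 4.3.3. The filter filterByExpr (count at least 10, total at least 15) kept 13294 genes. A quasi-likelihood model of the 8 groups with TMM scaling and 16 residual degrees of freedom gave 17 contrasts. Adjustment was by the Benjamini-Hochberg method over all tested genes of a contrast, with calls under 0.05. The prior count was 0.125, and a standard error is the absolute log2 change over the square root of F. The code was tested on simulated data. Alternatives were other scalings (RLE, upper quartile, library totals) and filters, DESeq2 1.42.0, limma 3.58.1 on log2 values of that deposited signal with 1 added, the compared groups fitted alone, replicate blocks, and each library left out.

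A check over 9582 genes asked whether same-numbered libraries deviate together from their groups. Within a genotype their correlation was 0.642 to 0.967, and that of libraries with other numbers -0.785 to 0.391. Between genotypes it was 0.822 to 0.878, 0.372 to 0.484 and 0.209 to 0.302 for replicates 1, 2 and 3. The labels describe independent preparations, so the pairing comes from the data, and blocked values are given where they change a result.

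The members, gene lists and tests were chosen with earlier results of these data known. Some single-gene values are not reported here, while counts and medians are over all members. Genes were named by a rule: the Ndufa4 family, isoforms and selected catalytic subunits always, the 5 largest rises and falls with at least 5 CPM in each contrast, and up to 4 called genes of each other list. Pseudogene copies were sought in the reference transcripts. Promoters came from RefSeq on GRCm38.p6, and exon lengths from the GENCODE annotation of GRCm38. The total count of a library, 14939019 to 22143774, limits what can be said of genes at about 1 CPM or less.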

Additional observations from a re-analysis of the deposited data

Results flagged for a closer look

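For 9 results the change after a stimulus differed between the genotypes by a test of the difference itself. After FN the change in KO less that in WT cells was -6.01 for AA467197, -5.37 for Ppargc1b, -0.58 for Atp5a1, -0.48 for Ndufb6, -0.42 for Atp5e, -0.41 for Cox4i1, 0.67 for Cox4nb and 1.21 for Atp5sl (log2). After LPS 10 ng/ml it was -2.62 for Ppargc1b, with an edgeR adjusted p of 0.0156, and Ppargc1b is the one of these that differed after both stimuli. Ppargc1b had 0.240 to 0.628 CPM in the KO FN libraries, against 20.1 to 32.0 CPM in the WT FN libraries, and 1.10 to 2.22 CPM in untreated KO cells against 1.18 to 2.75 CPM in untreated WT cells. The values for Atp5a1, Ndufb6, Atp5e and Cox4i1 are negative on the TMM scale and positive as shares of library totals, and the other 5 keep their sign on both. For Cox4nb and Atp5sl the kept sign says little, since all 84 members were positive as shares of library totals after FN. No group had 4 or more libraries, so single libraries were not tested for lying apart.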

How the results depend on the processing

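The main dependence was on the scaling of the libraries: nearly all rises of members turned negative as shares of library totals, while Atp5sl, Atp5s and Cox4nb fell on every scaling after FN and LPS 10 ng/ml in WT cells. Library totals left 0 of the 84 members positive in these comparisons, so a fall on the TMM scale could not turn there. The sources used here give no spike-in or cell number that would choose between scalings. The replicate block changed no call of KO against WT untreated, KO LPS 0.1, WT FN against LPS 10 or interaction LPS 0.1, all at 0. Below, WT LPS 10 and the like mean that stimulus against untreated cells of the same genotype, in ng/ml, and counts not given lay within 1.5 times the main ones. The removal of libraries rich in Rn45s or numbered 1 was chosen after seeing the data. Genes at about 1 CPM or less, Cox6a2 and Cox7a1 among them, are limited by depth. Where a value below differs, the cause was not tested, except that fewer libraries give fewer degrees of freedom. Of the values of named genes under an alternative, 4017 kept direction and side of the threshold, 303 kept direction and lost the call, 52 gained one and 73 changed sign.

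The counts in this paragraph join rises and falls and stand without the share over all genes, which can move with the setting too. A larger count here does not set the members apart from the background. With RLE scaling the members called were 10 for interaction FN and 14 for WT LPS 10 against LPS 0.1. With library totals the members called were 22 for interaction FN, 8 for KO FN against LPS 10, 31 for KO LPS 10, 24 for KO LPS 10 against LPS 0.1, 42 for KO against WT FN, 1 for KO against WT LPS 0.1, 5 for KO against WT LPS 10, 46 for WT FN, 44 for WT LPS 10 against LPS 0.1 and 51 for WT LPS 10. No member had a positive change for WT FN or WT LPS 10 there, so these calls were falls. The main fit had 23 higher and 3 lower in each. For KO against WT FN all 84 were positive, so the 42 were rises. With no filter the members called were 3 for interaction FN, 0 for KO against WT LPS 10 and 1 for WT LPS 0.1. With DESeq2 the members called were 19 for interaction FN, 7 for KO FN against LPS 10, 15 for KO LPS 10 against LPS 0.1, 2 for KO against WT LPS 0.1, 6 for KO against WT LPS 10, 4 for WT LPS 0.1 and 20 for WT LPS 10 against LPS 0.1. With the replicate block over all libraries the members called were 27 for interaction FN, 2 for KO FN, 10 for KO FN against LPS 10, 30 for KO LPS 10, 20 for KO LPS 10 against LPS 0.1, 42 for KO against WT FN, 4 for KO against WT LPS 0.1, 9 for KO against WT LPS 10, 49 for WT FN, 5 for WT LPS 0.1, 23 for WT LPS 10 against LPS 0.1 and 48 for WT LPS 10. With the replicate block nested in genotype the members called were 43 for interaction FN, 2 for interaction LPS 10, 9 for KO FN, 24 for KO FN against LPS 10, 35 for KO LPS 10, 28 for KO LPS 10 against LPS 0.1, 57 for WT FN, 18 for WT LPS 0.1, 38 for WT LPS 10 against LPS 0.1 and 54 for WT LPS 10. Without the 8 libraries numbered 1 the members called were 1 for interaction FN, 0 for KO FN, 0 for KO FN against LPS 10, 5 for KO LPS 10, 5 for KO LPS 10 against LPS 0.1, 0 for KO against WT LPS 10, 0 for WT LPS 0.1 and 5 for WT LPS 10 against LPS 0.1. With a filter of 5 CPM in 3 libraries the members called were 2 for KO FN and 2 for KO against WT LPS 0.1. With only the compared groups fitted the members called were 0 for KO FN, 1 for KO FN against LPS 10, 7 for KO LPS 10, 2 for KO LPS 10 against LPS 0.1, 11 for KO against WT FN, 0 for KO against WT LPS 10, 0 for WT LPS 0.1 and 3 for WT LPS 10 against LPS 0.1. With upper quartile scaling the members called were 8 for KO LPS 10, 4 for KO LPS 10 against LPS 0.1, 10 for KO against WT FN, 12 for WT FN, 1 for WT LPS 0.1, 5 for WT LPS 10 against LPS 0.1 and 10 for WT LPS 10. Without the 3 libraries rich in Rn45s the members called were 5 for KO LPS 10 against LPS 0.1, 1 for KO against WT LPS 0.1, 1 for KO against WT LPS 10 and 3 for WT LPS 10 against LPS 0.1. With limma the members called were 1 for KO against WT LPS 0.1. Leaving out each library in turn, the count ran from 0 to 1 for KO FN, 1 to 3 for KO FN against LPS 10, 4 to 11 for KO LPS 10 against LPS 0.1, 16 to 29 for KO against WT FN, 0 to 3 for KO against WT LPS 0.1, 0 to 4 for KO against WT LPS 10, 0 to 3 for WT LPS 0.1, 5 to 10 for WT LPS 10 against LPS 0.1, 17 to 29 for WT LPS 10 and 3 to 9 for interaction FN.

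With library totals the log2 values that changed sign were for KO FN against LPS 10 Ndufs4 0.032, for KO LPS 10 Atp5a1 -0.079, Atp5b -0.0005515, Cyc1 -0.019, Ndufa4 -0.30, Ndufb6 -0.15 and Ndufs4 -0.034, for KO LPS 10 against LPS 0.1 Atp5a1 -0.041, Ndufb6 -0.021 and Ndufs4 -0.065, for KO against WT FN Atp5a1 0.035, Atp5b 0.18, Cox4i1 0.27, Cox7a2 0.19, Ndufa2 0.10 and Uqcrq 0.16. Others were for KO against WT LPS 10 Sdhc 0.11, for WT FN Atp5a1 -0.061, Atp5b -0.13, Cox4i1 -0.33, Cox5a -0.19, Cyc1 -0.14, Ndufa4 -0.51, Sdhc -0.56 and Uqcrq -0.21, for WT LPS 10 against LPS 0.1 Atp5a1 -0.047, Atp5b -0.10, Atp5g3 -0.24, Ndufs4 -0.25 and Uqcrc2 -0.23, for WT LPS 10 Atp5a1 -0.078, Atp5b -0.16, Atp5c1 -0.70, Cox4i1 -0.40, Cox7a2l -0.64, Cs -0.083, Cyc1 -0.29, Ndufa4 -0.46, Ndufb6 -0.28, Ndufs4 -0.39, Ndufv1 -0.76, Sdha -0.68, Sdhc -0.53, Sdhd -0.74, Uqcrfs1 -0.37 and Uqcrq -0.26. The rest were for interaction FN Atp5a1 0.068, Atp5b 0.22, Atp5e 0.22, Cox4i1 0.24 and Ndufb6 0.16. With upper quartile scaling they were for KO LPS 10 Ndufa4 -0.024, for WT FN Sdhc -0.025, for WT LPS 10 Atp5c1 -0.14, Cox7a2l -0.10, Ndufv1 -0.21, Sdha -0.13 and Sdhd -0.18. With RLE scaling they were for WT LPS 10 Ndufs1 0.047 and Sdhb 0.026. With DESeq2 they were for WT LPS 10 Ndufs1 0.046 and Sdhb 0.026. Leaving out single libraries turned the sign of the following, given with the range over all such fits: Atp5c1 for WT LPS 10 (-0.065 to 0.24), Cox7a2l for WT LPS 10 (-0.40 to 0.74), Ndufa4 for KO LPS 10 (-0.083 to 0.38), Ndufa4 for WT FN (-0.031 to 0.59), Ndufs1 for WT LPS 10 (-0.094 to 0.024), Ndufv1 for WT LPS 10 (-0.0031 to 0.074) and Sdhd for WT LPS 10 (-0.0018 to 0.11).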
